A study of Cynoglossus semilaevis with 6 samples.

Results

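Genes of osmolyte and water handling, 3 of the 34751 transcript features in the deposited table, were examined in livers of the half-smooth tongue sole (Cynoglossus semilaevis), a flatfish of marine and estuarine water. They are miox (XM_008311891.1), slc6a6 (XM_008319443.1) and aqp10 (XM_008323103.1). They were picked out by these identifiers, and chosen with earlier results of these data known. All fish were female and had been reared for 10 months at 30 ppt. The LS_L group was then held at 15 ppt for 60 days, and the HS_L group, which served as the control, stayed at 30 ppt for the same time. There were 3 libraries per group. Livers of 3 fish from 1 tank were pooled for each of them, so a replicate is a tank and p-values measure the spread between tanks. All 3 genes belong to the study's own list of differentially expressed genes from these same libraries, so the separation of the groups described here is not independent evidence of a response.

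Cells balance a change in the salt around them partly with organic osmolytes, small molecules such as myo-inositol, taurine, betaine and sorbitol that can be stored or released without disturbing proteins. The enzyme encoded by miox opens the ring of myo-inositol and so starts its breakdown to glucuronate. The transporter encoded by slc6a6 carries taurine into cells together with sodium and chloride. Aquaporin 10 is an aquaglyceroporin, a membrane channel that passes glycerol as well as water. In mammals miox is known mainly as an enzyme of the kidney and AQP10 as a channel of the intestine, while the liver makes taurine and handles glycerol.

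The 3 genes differed widely in counted reads and in direction. Transcripts of miox were 5.55-fold higher in the LS_L group by mean normalized reads (2777 ± 978 against 501 ± 128, SD, n = 3 libraries per group), and those of slc6a6 and aqp10 were 8.91-fold and 5.08-fold lower (4.86 ± 1.61 against 43.3 ± 28.9, and 14.4 ± 3.66 against 73.0 ± 56.9). For each gene, all 3 LS_L libraries lay on one side of all 3 HS_L libraries. Such a separation was found for 12.7% of the 9343 features whose mean RPKM was 1 or more (7.80% higher and 4.94% lower in the LS_L group), which take in miox and aqp10, and for 10.0% of the 21231 features with any read, which take in slc6a6. The aqp10 feature reached a mean RPKM of 1 only through the HS_L group (3.04, against 0.644 in the LS_L group). Normalized reads are recovered reads divided by a size factor for the library, and RPKM are reads scaled to transcript length and to the size of the library. None of the 3 genes was called by limma, where a feature was called if its log2 fold change was beyond 1 and its p after Benjamini-Hochberg adjustment was under 0.05. Under these criteria 4 features (0.0428%) were called among the 9343, against 614 with an unadjusted p under 0.05.

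**Figure D1:**
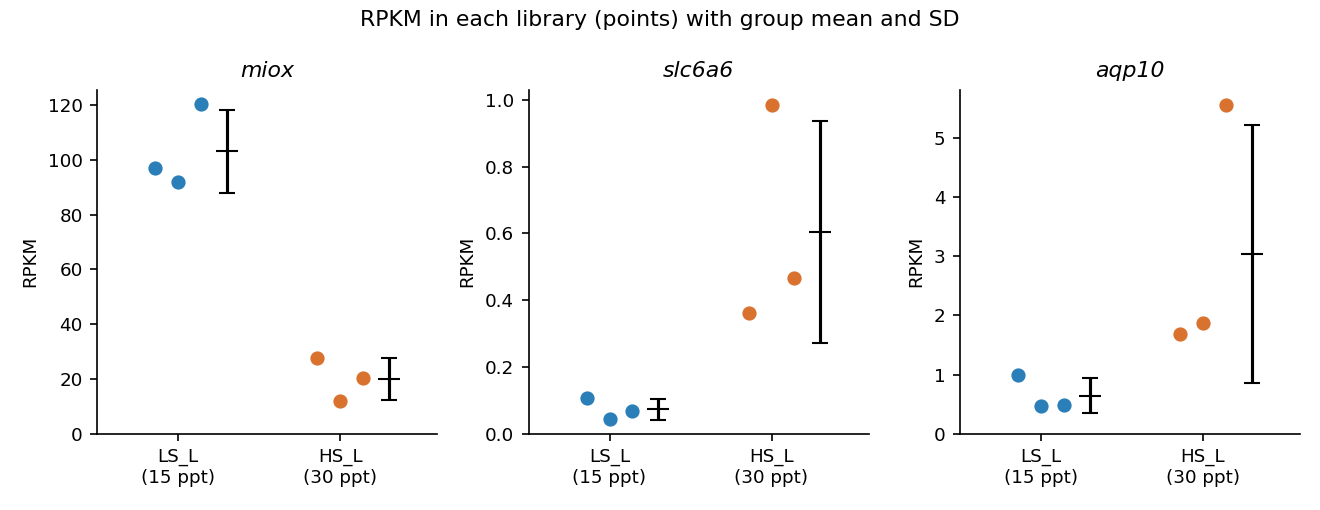
RPKM (linear axes from 0) of miox, slc6a6 and aqp10 in each LS_L (15 ppt, blue) and HS_L (30 ppt, orange) library, with the group mean and SD (n = 3) in black beside the points. The axes differ: miox reached 120 RPKM, aqp10 5.56 and slc6a6 0.984, and the groups do not overlap in any panel.

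Whole reads recovered from the table came to between 16176689 and 19428740 per library. Genes that mark liver cells were very abundant in every library, with summed scaled RPKM of 58392 to 121616 over the hepatocyte markers in the LS_L group and 83666 to 190209 in the HS_L group. Markers of exocrine pancreas summed to 158 to 177 in the LS_L group and to 815, 3942 and 362 in HS_L_1, HS_L_2 and HS_L_3. Among these markers LOC103389284, LOC103389307, LOC103394162 and LOC103396493 are in the study's own list of differentially expressed genes. The separation of the groups in this sum is therefore not independent of that selection. Skeletal muscle markers summed to 30.8, 48.8 and 41.4 in LS_L_1, HS_L_1 and HS_L_2, and to between 0.319 and 3.94 in the other libraries. Oocyte markers summed to 38.3, 48.0 and 15.0 in LS_L_2, HS_L_1 and HS_L_2 and to at most 1.98 elsewhere, and red blood cell markers to between 3.42 and 10.4. The red blood cell sum is a lower estimate, since no hemoglobin feature was matched and the alas2 features, listed at 0, overlap each other. Kidney markers summed to no more than 1.76 in any library. This sum is a lower estimate, since 28 of the 34 kidney features overlap another feature on their strand and reads shared by overlapping features are not counted, and the same limit holds for pax2a, pax8 and podxl, listed at 0 in all libraries, whose features all overlap. The part of these other tissues in the results was not tested, and in pooled tissue fewer cells of a type and less RNA per cell cannot be told apart.

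The miox feature lies on the minus strand of chromosome 6 (9968649 to 9972018, assembly Cse_v1.0), spans 3370 bases and has 1439 bases of transcript. No other feature overlaps it on its strand, and the reference has miox at this position. The RPKM of miox was 97.1, 92.1 and 120 in LS_L_1, LS_L_2 and LS_L_3, and 27.6, 12.0 and 20.2 in HS_L_1, HS_L_2 and HS_L_3. All LS_L tanks were therefore well above all HS_L tanks, and in normalized reads the lowest LS_L library stood 3.41-fold above the highest HS_L library. These values rest on 2418, 2444 and 3364 reads in LS_L_1, LS_L_2 and LS_L_3 and on 643, 332 and 527 in their HS_L counterparts, so counting error is small beside the spread between tanks. Within a group, the highest library exceeded the lowest 1.93-fold in the LS_L group and 1.66-fold in the HS_L group.

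In the LS_L livers miox ranked among the top 2.40% to 2.94% of features with reads, and in the HS_L livers among the top 7.19% to 12.1%. The log2 fold change of miox was 2.39 (SE 0.33, 95% interval 1.61 to 3.16) on the log2(scaled RPKM + 1) scale, and 17 of the 9343 features tested had a larger increase. The adjusted p was 0.104 by limma with Benjamini-Hochberg adjustment, and the two-sided exact permutation test of the normalized reads gave p = 0.1, the smallest value that 3 libraries against 3 allow. Leaving out each library in turn kept the log2 fold change between 2.12 and 2.59. With limma-voom on the recovered reads of all features with any read, a fit chosen after the data had been seen, the adjusted p of miox was 0.0322, and this was the one fit tried in which any of the 3 genes was called.

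The genes on either side of miox gave no such difference. The nearest feature at lower coordinates, lmf2a, lies 459 bases away on the other strand, and had 331, 363 and 460 normalized reads in the LS_L group and 471, 269 and 389 in the HS_L group. The nearest at higher coordinates, adm2b, the gene of an adrenomedullin peptide, is 3114 bases away and had between 6.37 and 27.4 normalized reads. In both neighbours the groups overlapped, with log2 fold changes of 0.05 (SE 0.24) and 0.36 (SE 0.30).

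Files of transcript events, made by the authors separately for each library, give another measure of the same locus: the FPKM (fragments scaled in the same way) of the assembled transcripts that carry a given first or last exon. The FPKM at the first exon of miox, which covers 75 bases from 9971944 to 9972018, was 61.5, 68.9 and 100.1 at 15 ppt and 11.4, 9.93 and 7.0 at 30 ppt. At the last exon the FPKM was 74.2, 68.9 and 100.1 at 15 ppt and 26.7, 9.93 and 19.5 at 30 ppt. Both ends of miox thus separated the groups, with ratios of the group means of 8.14 at the first exon and 4.33 at the last (two-sided exact permutation p = 0.1 for each). In LS_L_1, HS_L_1 and HS_L_3 the value at the first exon was below that at the last, and in the other 3 libraries the values were equal.

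Exon skipping within miox was listed in 1 of the 6 libraries, HS_L_2. The skipped exon has 68 bases (chromosome 6, 9970217 to 9970284). Transcripts with the exon had an FPKM of 8.74 and those without it 1.19, so that skipping made up 12.0% of the total in the library where miox was lowest. No depth is given with these FPKM, and no interval is attached to this share.

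**Figure D2:**
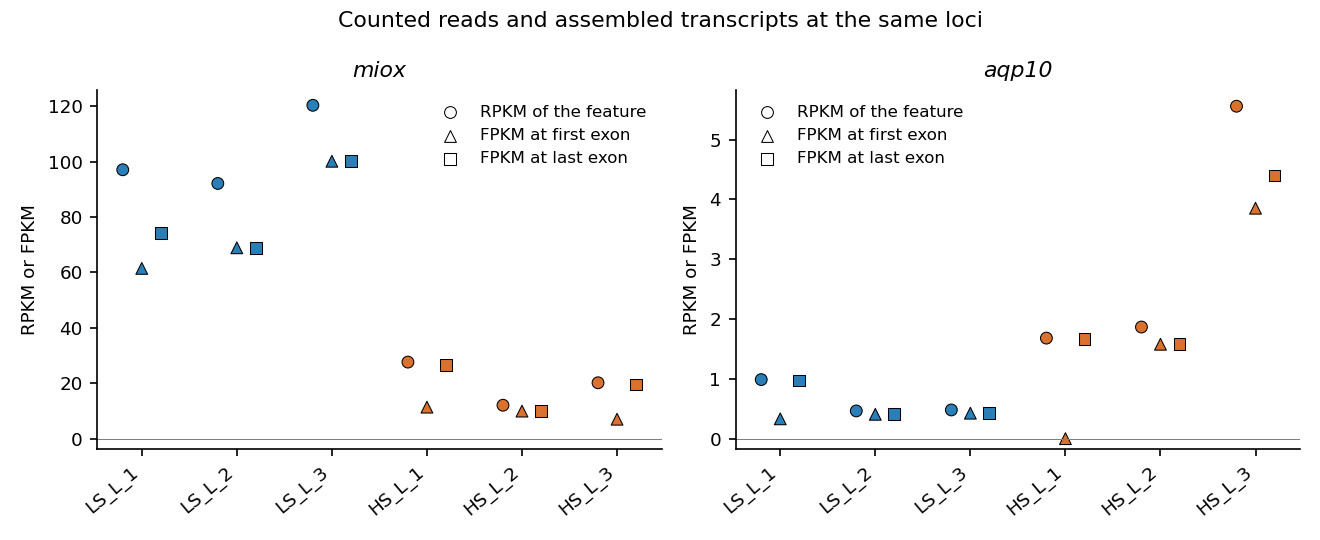
RPKM of the feature (circles) and FPKM of assembled transcripts at the first exon (triangles) and last exon (squares) of miox and aqp10 in each library, on linear axes with LS_L in blue and HS_L in orange. All 3 measures of miox place the LS_L libraries above the HS_L libraries, while the first-exon value of aqp10 is 0 in HS_L_1.

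The slc6a6 feature lies on the plus strand of chromosome 10 (20091839 to 20122689), spans 30851 bases and has 3768 bases of transcript. The RPKM counted for this feature was low, at 0.107, 0.0432 and 0.0683 in LS_L_1, LS_L_2 and LS_L_3. In HS_L_1, HS_L_2 and HS_L_3 it was 0.361, 0.984 and 0.467. These values leave out reads shared with a second transcript of the gene, described below, so they do not give the level of the gene. HS_L_2 was the highest and every LS_L library was below every HS_L library. The reads behind these values were 7, 3 and 5 in the LS_L group and 22, 71 and 32 in the HS_L group, a total of 15 against 125. The exact 95% Poisson interval of the highest LS_L library (2.81 to 14.4 reads) met that of the lowest HS_L library (13.8 to 33.3), and these intervals cover counting error only.

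With a mean RPKM of 0.339 slc6a6 was under the minimum of 1, so its test comes from the fit with no filter. The log2 fold change was -0.58 (SE 0.19, 95% interval -1.03 to -0.13) and the adjusted p was 0.893 by limma with Benjamini-Hochberg adjustment over the 21231 features, of which 1 (0.00471%) was called and 1022 had an unadjusted p under 0.05. The pseudocount of 1 is larger than the scaled RPKM of slc6a6 in every library but HS_L_2 (1.11), and with a pseudocount of 0.1 the log2 fold change was -1.96 (adjusted p = 0.659). With limma-voom on the recovered reads it was -2.84 (adjusted p = 0.450). The ratio of mean normalized reads, 8.91, became 5.56 without HS_L_2 and was between 7.48 and 11.3 when each of the other libraries was left out. The two-sided exact permutation test of the normalized reads gave p = 0.1.

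HS_L_2, the library with the most slc6a6 reads, also had the highest sum of pancreas markers. HS_L_3, with the lowest pancreas sum of the HS_L group (362 against 158 to 177 in the LS_L group), had 33.9 normalized slc6a6 reads, more than the 20.1 of HS_L_1 with a pancreas sum of 815. Of the 6 pancreas features in HS_L_3, trypsin prss1, at 28.7 RPKM, was within the LS_L range of 11.6 to 52.6. The features cpb1, LOC103389284 and LOC103394162 were also within their LS_L ranges of RPKM. The amylase LOC103396493, at 294 RPKM, was above its range of 71.8 to 182. So was LOC103389307, at 0.129 RPKM against 0.0303 to 0.0956. The part of pancreas in the slc6a6 values was not tested.

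The reference has LOC103385522 at the position of the slc6a6 feature, and the name slc6a6 is the study's. A second transcript of the same gene (XM_008319444.1, also LOC103385522) covers the whole slc6a6 span and starts 859 bases before it. Under the counting mode used by the authors, a read that falls on both features is counted for neither, so the slc6a6 values leave out reads shared by the 2 transcripts and are a lower estimate of the gene. The second transcript had 1 read in every LS_L library, and 4, 0 and 2 reads in HS_L_1, HS_L_2 and HS_L_3. Adding them left the log2 fold change at -0.59. This addition brings in few reads and does not restore the shared ones, so it cannot show how the overlap affects the change. A second gene of this name, slc6a6b on chromosome 11, had at most 0.0586 RPKM in any of its 4 transcripts, which overlap each other, so these values too are lower estimates. The event files used here hold no rows between 15035886 and 20974814 of chromosome 10 in any library, a stretch that contains slc6a6, so no FPKM could be set beside its RPKM.

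**Figure D3:**
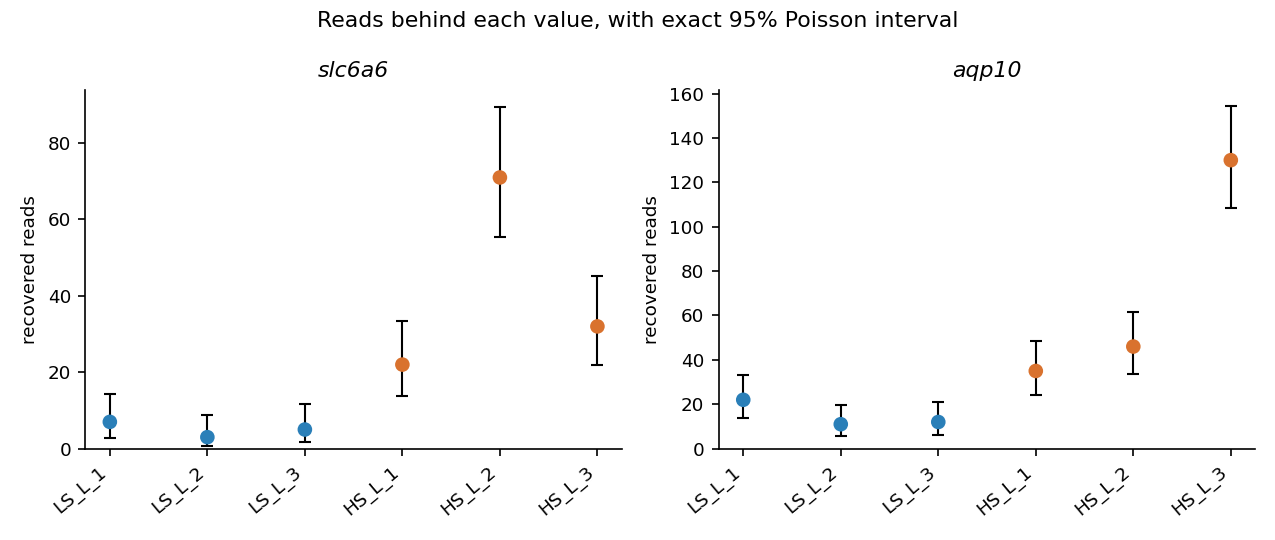
Recovered reads (points, linear axes from 0) of slc6a6 and aqp10 in each library, with exact 95% Poisson intervals for counting error (LS_L blue, HS_L orange). Single libraries stand out within the HS_L group, HS_L_2 with 71 reads for slc6a6 and HS_L_3 with 130 reads for aqp10.

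The aqp10 feature (aqp10a in the reference) lies on the minus strand of chromosome 13 (4362868 to 4366082), spans 3215 bases, has 1287 bases of transcript and overlaps no other feature on its strand. The RPKM of aqp10 was 0.987, 0.464 and 0.480 in LS_L_1, LS_L_2 and LS_L_3, and 1.68, 1.87 and 5.56 in HS_L_1, HS_L_2 and HS_L_3. The LS_L libraries were below the HS_L libraries, by 1.75-fold in normalized reads between the nearest libraries of the groups, and HS_L_3 stood far above the other HS_L tanks. The reads were 22, 11 and 12 in the LS_L group and 35, 46 and 130 in the HS_L group. The exact Poisson intervals of LS_L_1 (13.8 to 33.3 reads) and HS_L_1 (24.4 to 48.7) overlapped.

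The log2 fold change of aqp10 was -1.20 (SE 0.39, 95% interval -2.14 to -0.27), with an adjusted p of 0.716 by limma with Benjamini-Hochberg adjustment, and p = 0.1 in the two-sided exact permutation test. Every LS_L library was under the minimum RPKM of 1, so aqp10 was tested among the 9343 features only because of its HS_L values. With no filter its adjusted p by limma was 0.893. The log2 fold change depended on HS_L_3. Without that library the ratio of the mean normalized reads went from 5.08 to 2.82 and the log2 fold change from -1.20 to -0.75, while leaving out any other library gave ratios of 4.55 to 6.51. The spread of aqp10 within groups, an SD of 0.58 on the log2 scale, was larger than that of 82.4% of the features tested, against 68.8% for miox.

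At the last exon of aqp10 the FPKM of assembled transcripts was 0.974, 0.407 and 0.426 at 15 ppt and 1.67, 1.58 and 4.40 at 30 ppt, again without overlap. At the first exon (4365924 to 4366082) it was 0.331, 0.407 and 0.426 at 15 ppt and 0, 1.58 and 3.85 at 30 ppt. HS_L_1 was listed at 0 there in spite of its 35 counted reads, so the groups overlapped at the first exon (two-sided exact permutation p = 0.4) and did not at the last (p = 0.1). Retention of an intron of 106 bases (4365091 to 4365196) was listed in HS_L_2 alone of the 6 libraries. Its FPKM was 0.382 against 1.20 for the spliced form, or 24.2% of the total. HS_L_2 had 46 counted aqp10 reads, and no interval is attached to this share.

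The nearest features to aqp10 had few reads and no difference of this size. At 1005 bases, atp8b2 on the same strand, which encodes a phospholipid flippase, had 9.0 to 28.2 normalized reads in the LS_L group and 9.60 to 23.8 in the HS_L group. At 1208 bases on the other side, LOC103388209 had 58.0 to 73.1 and 59.7 to 79.6. Intestine markers, which matter here because AQP10 is an intestinal channel in mammals, summed to 4.74, 18.1 and 17.9 in LS_L_1, LS_L_2 and LS_L_3 and to 6.88, 4.14 and 5.00 in HS_L_1, HS_L_2 and HS_L_3, and fabp2, which is in the study's own list, carried the high sums with 14.5 and 13 RPKM in LS_L_2 and LS_L_3. Single intestine markers went different ways in HS_L_3, the library with the most aqp10. There mep1a.2 was highest, with 184 normalized reads against 72.5 to 131 elsewhere. By contrast fabp2 was lowest, with 10.6 against 14.6 to 191. Within the HS_L group mep1bb and slc15a1a were also lowest there, at 1.06 each, against 31.1 and 86.9 in HS_L_1. Between the groups, however, mep1bb was lower in the LS_L group, as aqp10 was, with 0 in every LS_L library. For slc15a1a the groups overlapped, with 1.66, 72.0 and 0 in LS_L_1, LS_L_2 and LS_L_3. The feature slc15a1b was highest of the HS_L group in HS_L_3, at 12.7, against 16.6 in LS_L_1. Bile duct markers, of which epcam made up most, summed to 28.4, 37.6 and 21.4 in the LS_L libraries and to 28.0, 40.9 and 56.2 in HS_L_1, HS_L_2 and HS_L_3. The high sum of HS_L_3 came from epcam, at 50.3 RPKM. The other bile duct feature tested, cftr, was lowest in HS_L_3, at 0.969 RPKM against 1.27 to 3.27 elsewhere. By contrast slc4a2a, under the RPKM minimum and so not tested, was highest there, at 1.38 RPKM against 0.233 to 1.07 elsewhere. Of the 25 bile duct features 22 overlap another on their strand, among them all those of spp1 and prom1a, which are listed at 0, so this sum is a lower estimate. The part of intestine and bile duct in the aqp10 values was not tested.

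The other aquaporins that were matched showed where aqp10 stands among them in this liver. Of 16 aquaporin features, 10 had reads and 6 reached a mean RPKM of 1. No feature was matched to aqp2, aqp3, aqp5, aqp6 or aqp14, which were also searched for, so these were not examined. The most abundant of the matched features was aqp7, an aquaglyceroporin. Its RPKM was 25.6, 30.3 and 34.7 in the LS_L group and 20.6, 36.8 and 20.2 in the HS_L group. A counterpart of the liver glycerol channel of mammals, aqp9b, was at 2.39 to 4.76 RPKM in the LS_L group and 3.21 to 5.59 in the HS_L group. For both of these channels of glycerol the groups overlapped, with log2 fold changes of 0.27 (SE 0.41) for aqp7 and -0.13 (SE 0.37) for aqp9b.

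A water channel, aqp1a.1, lay lower in the LS_L libraries (2.58, 1.55 and 1.90 RPKM) than in HS_L_1 and HS_L_2 (8.37 and 3.35), but at 2.23 RPKM HS_L_3 was within the LS_L range. In normalized reads its groups came apart by a small margin, 61.1 in LS_L_3 against 61.5 in HS_L_3 (log2 fold change -0.75, SE 0.32, adjusted p = 0.762 by limma). The RPKM of aqp12 was 0.374, 3.63 and 4.22 in the LS_L group and 0.60, 1.41 and 0.890 in the HS_L group. That of aqp8a.1 was 0.681 to 1.71 and 0.851 to 1.57. The lens-type channel mipa was rare, at 0.0556 to 0.178 RPKM in the LS_L group and 0.268 to 0.571 in the HS_L group, and mipb, aqp8b and aqp11 had at most 0.337 RPKM in any library. No read was counted for aqp4 or aqp9a. The transcripts of aqp4, of aqp9a and of aqp11 overlap each other almost wholly, 2 for each gene, so that nearly all of their reads would have been left out by the counting.

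**Figure D4:**
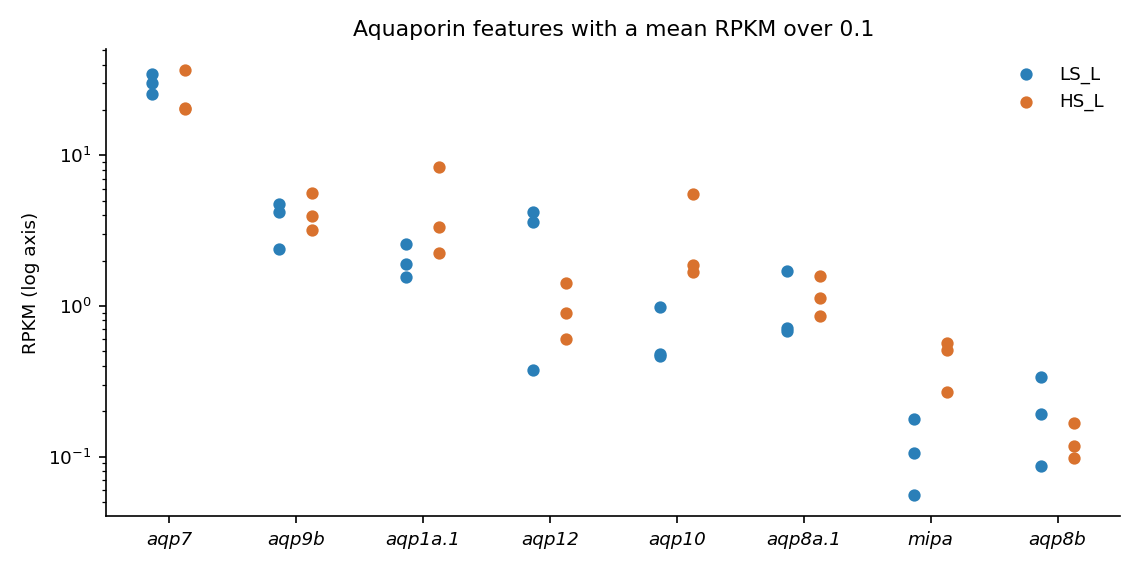
RPKM on a log axis of the 8 aquaporin features with a mean RPKM over 0.1, each point being 1 library (LS_L blue, HS_L orange) and the features ordered by mean RPKM. In RPKM the groups are apart for aqp10 and mipa, and aqp7 is the most abundant in every library.

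Around miox, the list for synthesis, transport and breakdown of myo-inositol had 21 features, of which 7 were tested and 0 called. The synthesis genes isyna1, impa1 and impa2 were searched for, but no feature was matched to them, so they were not examined. By unadjusted p under 0.05, 1 was higher in the LS_L group (miox itself) and 2 were lower, against 3.71% and 2.86% of all features tested. The lower ones were slc5a3b and cryl1. The sodium-coupled myo-inositol transporter gene slc5a3b had 85.5, 88.0 and 86.5 normalized reads in the LS_L group and 113, 201 and 160 in the HS_L group (log2 fold change -0.57, SE 0.21, adjusted p = 0.727 by limma). In cryl1, which encodes a gulonate dehydrogenase downstream of miox, they numbered 345, 185 and 214 against 367, 441 and 348 (log2 fold change -0.63, SE 0.26, adjusted p = 0.760). Further along the same route to pentose sugars, the groups overlapped for dcxr (log2 fold change -0.10, SE 0.22) and for both xylb features (-0.24, SE 0.30, and 0.13, SE 0.31). The most abundant of the list, the sorbitol dehydrogenase gene sord, had 4931 to 11448 normalized reads in the LS_L group and 7297 to 15108 in the HS_L group. A rare transcript, akr1a1a, which shares its place with 3 other features, had 0 to 1.15 normalized reads against 1.83 to 4.27. The median log2 fold change of the list was -0.24, against 0.03 over all features tested.

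Around slc6a6, the taurine list had 10 features and 2 tested, and 9 of the 10 overlap another feature on their strand. No feature was matched to gadl1, ado, fmo1 or baat, which were also searched for, so these were not examined. The csad features overlap each other and had at most 0.830 normalized reads in any library, which is a lower estimate. The gene cdo1, whose enzyme oxidizes cysteine in the first step toward taurine, was abundant, with 9415, 9267 and 12145 normalized reads in the LS_L group and 6263, 4033 and 9041 in the HS_L group. The groups did not overlap, by a small margin between 9267 in LS_L_2 and 9041 in HS_L_3 (log2 fold change 0.74, SE 0.35, adjusted p = 0.787 by limma), and 2 other features overlap cdo1 on its strand. The amino acid transporter gene slc36a1 had 45.7 to 88.8 normalized reads in the LS_L group, 51.2 and 69.0 in HS_L_1 and HS_L_3, and 274 in HS_L_2.

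Among the genes for betaine, creatine, GABA and sorbitol osmolytes, 6 of 18 features were tested and 0 were called. No feature was matched to akr1b1, bhmt or sardh, which were also searched for, so these were not examined. Of all features tested, 2.86% were lower in the LS_L group by unadjusted p under 0.05, and 4.94% were lower without overlap. By unadjusted p, 2 features of this list were lower in the LS_L group with no overlap between groups. One was gamt, whose enzyme makes creatine, with 460, 1126 and 1267 normalized reads in the LS_L group and 3320, 4975 and 3037 in the HS_L group (log2 fold change -2.06, SE 0.44, adjusted p = 0.374 by limma). It was also the most abundant of the list. The other was LOC103389703, a GABA transporter of the same carrier family as slc6a6, with 384, 539 and 552 against 965, 1085 and 1238 (log2 fold change -1.04, SE 0.20, adjusted p = 0.318). Both are in the study's own list of differentially expressed genes, and LOC103389703 entered the list here through the study's description of it. For slc6a13, another member of the family, the 2 features gave log2 fold changes of -0.62 (SE 0.34) and -0.33 (SE 0.48), with overlapping groups.

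For cell volume and tonicity 8 of 40 features were tested, and for glycerol handling 5 of 13, and in neither list was any feature called, below an unadjusted p of 0.05 or without overlap. Their most abundant members were slc12a4, a potassium-chloride cotransporter gene, with a log2 fold change of 0.21 (SE 0.26), and pnpla2, a triglyceride lipase gene, with 0.09 (SE 0.30). The medians were -0.17 for cell volume and -0.01 for glycerol handling. No feature was matched to gk or to gpd1 itself for glycerol handling, or to lrrc8b, lrrc8e or slc14a1 for cell volume. These were therefore not examined. Of the 40 cell volume features 30 overlap another on their strand, and 7 of the 13 for glycerol handling do, so their reads are lower estimates. Over the 6 lists together, 34 features were tested, 0 were called, and 6 (17.6%) had an unadjusted p under 0.05, 1 of them higher and 5 lower in the LS_L group, against 6.57% of all features tested (3.71% higher and 2.86% lower). Without miox and aqp10, which were in the study's own list, 4 of 32 remained (12.5%), all lower, and gamt and LOC103389703 were 2 of these 4. Both are in the study's own list too, so neither share is independent of that selection. The other 2 were slc5a3b and cryl1. Groups did not overlap for 8 of the 34 features (23.5%), 2 higher and 6 lower in the LS_L group, against 12.7% of all features tested. Without miox and aqp10 these were 6 of 32 (18.8%), 1 higher and 5 lower. With gamt and LOC103389703 among them, these shares are not independent of the study's selection either.

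**Figure D5:**
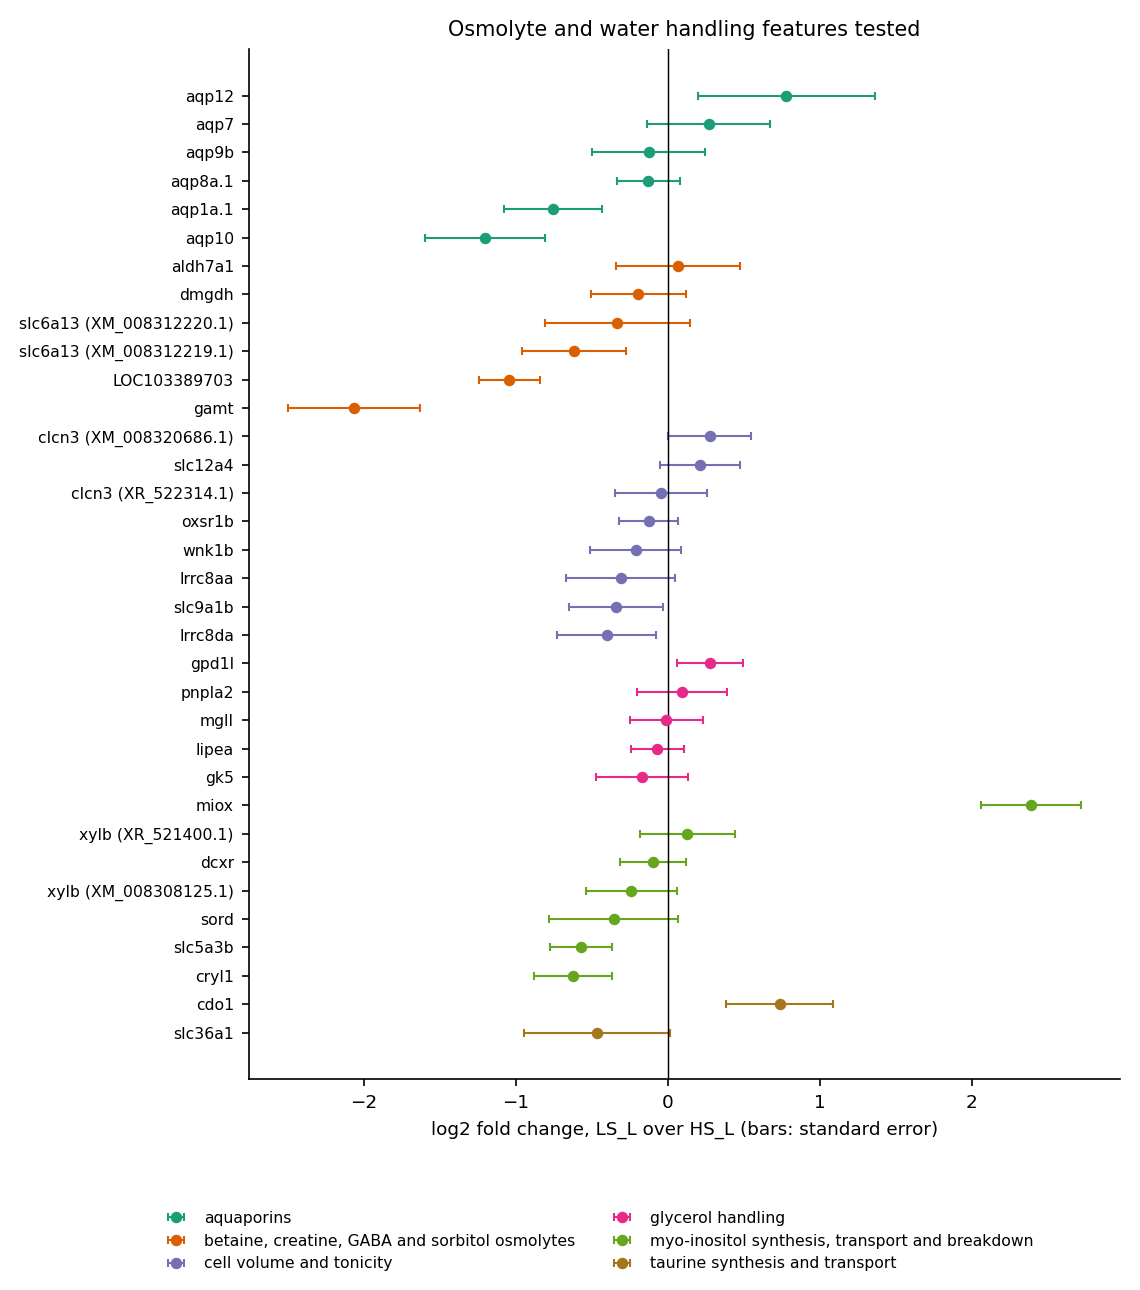
Log2 fold change (LS_L over HS_L, on log2 of scaled RPKM + 1) of the 34 tested features in the 6 osmolyte and water handling lists, coloured by list, with bars for the standard error. The value for miox (2.39) lies farthest to the right, those for gamt (-2.06), aqp10 (-1.20) and LOC103389703 (-1.04) farthest to the left, and the other 30 lie between -0.75 and 0.78.

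The features whose pattern over the 6 libraries was most like that of each gene were found by Pearson r of log2(scaled RPKM + 1) among the features tested, as a description. These libraries share depth and group differences with every gene, and r above 0.95 was reached by 54 features for miox, 53 for slc6a6 and 31 for aqp10. Most like miox were ube2d2, a ubiquitin-conjugating enzyme gene (r = 0.996), the proteasome subunit genes psmb6 (r = 0.996) and psma5 (r = 0.991), the sulfatase gene arsk (r = 0.987) and rer1 (r = 0.986), a gene of protein sorting between endoplasmic reticulum and Golgi. Their changes were smaller than that of miox, with log2 fold changes of 0.24 to 0.65, and psma5, for example, had 967, 1027 and 1229 normalized reads in the LS_L group and 724, 645 and 669 in the HS_L group.

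Most like slc6a6 were col4a1, a basement membrane collagen gene (r = 0.995), LOC103399647 (r = 0.992), LOC103379442 (r = 0.986), LOC103390650 (r = 0.986) and the carnosinase gene cndp1 (r = 0.986). All 5 were highest in HS_L_2, as slc6a6 was, and cndp1 had 30029 normalized reads there against 4037 to 8444 in the other libraries. Most like aqp10 were LOC103381348 (r = 0.989), the collagen gene col4a2 (r = 0.988), tsnaxip1 (r = 0.988), LOC103389165 (r = 0.988) and the unnamed non-coding feature XR_522163.1 (r = 0.985). These were highest in HS_L_3, where col4a2 had 2942 normalized reads against 959 to 1828 elsewhere. No feature was among the 5 most alike for more than 1 of the genes.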

How the data were processed

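RNA of 6 pools, each of 3 livers, was sequenced on an Illumina HiSeq. The authors used TopHat for alignment, dropped reads with more than 1 location, counted by HTSeq (union mode), and deposited RPKM per feature and library. A deposited table holds, by the authors, the mean normalized signal per group, which served only to check the recovered reads. The authors also deposited FPKM of assembled transcripts per event; the tool is not given in the sources used here. Columns of the authors' own comparisons hold fold changes and p-values and were not used. Features were named by RefSeq accession (20016) or position (12558), and 2177 had no name, among them 468 whose position matched a gene on the other strand.

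Multiplying RPKM by length gave back whole reads (at least 99.7% of values whole within 0.02), which were divided by median-of-ratios size factors. The test was limma 3.58.1 (R 4.3.3; lmFit, eBayes with trend and robust) on log2 of scaled RPKM plus 1, features with mean RPKM of at least 1, no covariate, LS_L over HS_L. Python 3.11.15 with scipy 1.17.1 gave exact permutation tests. The code was tested on simulated data. Members and lists were chosen with earlier results of these data known. Named genes are the 3 members, features overlapping them or of the same gene, aquaporins, list members with unadjusted p under 0.05 or no overlap or the highest RPKM, and the 5 most alike; neighbouring features, single tissue markers, slc36a1, slc6a13, dcxr and xylb were added after values were seen. No member sequence is printed.

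Replicate numbers come from the labels, which do not say that same-numbered tanks shared anything. Deviations of same-numbered libraries correlated at 0.173, 0.165 and 0.232, so the number entered 1 alternative fit as a block. Crossed pairs gave 0.166, 0.221 and 0.122, and -0.457, -0.273 and -0.355. Alternatives were other scaling, filters, pseudocount, limma-voom, plain limma, each library left out, event FPKM and the second slc6a6 transcript.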

Additional observations from a re-analysis of the deposited data

How the results depend on the processing

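All 3 genes kept their direction in every alternative run. The log2 fold change of miox ranged from 2.12 to 2.59 with 1 library left out and from 2.14 to 2.89 otherwise, and it passed both criteria in 1 fit, limma-voom with no filter (2.45, adjusted p = 0.0322), which was chosen after seeing the data. For slc6a6 the ranges were -0.73 to -0.38 and -2.84 to -0.56, and for aqp10 -1.53 to -0.75 and -2.02 to -0.74. The count of called features, 4, was 0 with the replicate block (793 features at an unadjusted p under 0.05 by limma), 0 to 17 with 1 library left out (17 without LS_L_1, 2 without HS_L_2 and 0 without each of the others, with 333 to 707 at an unadjusted p under 0.05), 2 with upper-quartile factors, 10 with RPKM as deposited, 1 with no filter, 7 with at least 10 reads in every library, 2 with a mean RPKM of at least 0.1, and 16 with limma-voom and no filter. The block changed no call for the 3 genes. The median of the betaine, creatine, GABA and sorbitol list went from -0.48 to -0.020 with no filter, where features with few reads enter. With 1 library left out it ranged from -0.78 to -0.20. The other medians ranged from -0.47 to -0.019 for myo-inositol, -0.24 to -0.019 for aquaporins, -0.31 to 0.041 for cell volume and -0.064 to 0.046 for glycerol handling. Event FPKM, and the minimum of 10 reads in every library, gave no value for slc6a6. With 3 to 130 counted reads per library, few reads limit slc6a6 and aqp10. For slc6a6 the counting also left out reads shared with the second transcript, which greater depth would not restore. The cause of each other change was not tested.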
